A study of Mus musculus with 5 samples.

Results

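Collagens are the main structural proteins of the extracellular matrix, and their genes were followed here in mouse liver tumours with and without added Prox1. The genes were taken by name, as every row of the table whose mouse symbol was Col, a number, a and a number. This gave 44 collagen genes of 55397 genes in the table. The tumours came from female C57BL/6N mice injected at 8 weeks of age through the tail vein, under pressure, with plasmids that mainly reach hepatocytes. Both groups received the Sleeping Beauty transposase, behind a CMV promoter, which inserts the other plasmids into the genome. They also received AKT and the active fragment of the NOTCH receptor (NICD), each behind an EF1a promoter, with the doxycycline-dependent activator rtTA on the NICD plasmid. These genes give tumours with features of bile duct cancer. The Prox1 OE group had FLAG-tagged mouse Prox1 with GFP behind a Tre promoter, which doxycycline switches on, and the Control group (EV) had GFP alone behind the same promoter. Food with 6.25% doxycycline started on day 21, so that Prox1 was expressed from week 3 to 4. Tumours were dissected 1 week after the switch or when the animal reached a humane endpoint, and which of these applied to each tumour was not given. There were 2 Control and 3 Prox1 OE libraries, and the labels do not say that they came from separate mice, so the p-values measure the spread between these samples. The plasmid genes enter transformed cells. A dissected tumour also holds stromal, endothelial and immune cells and can include adjoining liver, and no sorting was described.

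Each collagen molecule is a triple helix of 3 chains, which may be alike or come from different genes. Fibrillar collagens (types I, II, III, V, XI, XXIV and XXVII) pack into the rope-like fibres of scar tissue. Basement membrane collagens (type IV) form a flat mesh under epithelium and around vessels, and other classes bead, decorate or anchor these structures or sit in cell membranes. In the liver, hepatic stellate cells and portal fibroblasts are known as the main sources of fibrillar collagen. Endothelial cells and bile duct cells also make type IV collagen.

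Totals ran from 48740863 to 56629477 reads per library and overlapped between the groups. Values are normalised counts, which are reads divided by a size factor of the library, and 1 read was worth 0.822 and 0.848 normalised counts in Control and 1.02, 1.18 and 1.16 in Prox1 OE, so that the scaling differed between the groups. Log2 fold changes are Prox1 OE minus Control on the log2(normalised count + 1) scale. A gene is called higher or lower where its p from limma, after Benjamini-Hochberg adjustment over all 17105 genes tested, is under 0.05; adjusted p below always means this value. Prox1 had 4153 and 4664 normalised counts in Control 1 and 2, and 48090, 11113 and 8231 in Prox1 OE 1, 2 and 3. The groups did not overlap, but the log2 fold change of 1.90 did not pass the threshold (adjusted p 0.061), so Prox1 itself was not called. Markers of hepatocytes, the cells that the plasmids mainly reach, were present in every library, as were bile duct markers. The hepatocyte markers do not separate transformed from normal hepatocytes. Summed normalised counts of 8 hepatocyte markers were 665109 and 1099160 in Control and 2330470 to 3694790 in Prox1 OE. All 8 were called higher, where 17.1% of all genes were. Without Control 1 none was (3.98% of all genes), and without Prox1 OE 2 the test called 4 (12.5% of all genes).

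The promoter sequences of 5 collagen genes are shown because these genes moved in opposite directions, and they were chosen after their values were seen. Col5a3, Col27a1 and Col13a1 were the only collagens called higher in Prox1 OE. Col5a1 encodes a chain that assembles with the Col5a2 chain in type V collagen but was called lower, as was Col3a1, the type III chain. Each line gives the 250 bases before the RefSeq start on the gene's own strand, 5′ to 3′ (GRCm38.p6, the build of mm10). Capitals mark matches on either strand to the CCAAT box, to the core promoter motif TATAAA, or to GGGCGG, which is bound by SP1-type factors. The windows are chr9:20815068-20815317 (minus strand) for Col5a3, chr4:63215162-63215411 (plus) for Col27a1 and chr10:61979109-61979358 (minus) for Col13a1. They are chr2:27886175-27886424 (plus) for Col5a1 and chr1:45311288-45311537 (plus) for Col3a1. The windows end at the base before the annotated gene, except for Col27a1, whose window lies inside the longer gene span of the GENCODE annotation and outside its exons.
Col5a3: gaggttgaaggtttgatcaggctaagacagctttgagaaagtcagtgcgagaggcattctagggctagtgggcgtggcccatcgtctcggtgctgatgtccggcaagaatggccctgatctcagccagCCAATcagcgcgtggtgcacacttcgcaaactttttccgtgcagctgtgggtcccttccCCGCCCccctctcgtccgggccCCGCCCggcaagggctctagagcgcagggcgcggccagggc
Col27a1: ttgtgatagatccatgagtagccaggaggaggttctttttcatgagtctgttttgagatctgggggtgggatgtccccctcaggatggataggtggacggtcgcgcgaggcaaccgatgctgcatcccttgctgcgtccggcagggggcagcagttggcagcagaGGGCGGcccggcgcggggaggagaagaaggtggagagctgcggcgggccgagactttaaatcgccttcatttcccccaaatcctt
Col13a1: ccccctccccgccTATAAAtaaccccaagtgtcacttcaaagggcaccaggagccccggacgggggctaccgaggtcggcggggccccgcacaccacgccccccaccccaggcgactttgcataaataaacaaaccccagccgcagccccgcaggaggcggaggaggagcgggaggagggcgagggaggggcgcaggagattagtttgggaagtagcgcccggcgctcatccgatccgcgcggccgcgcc
Col5a1: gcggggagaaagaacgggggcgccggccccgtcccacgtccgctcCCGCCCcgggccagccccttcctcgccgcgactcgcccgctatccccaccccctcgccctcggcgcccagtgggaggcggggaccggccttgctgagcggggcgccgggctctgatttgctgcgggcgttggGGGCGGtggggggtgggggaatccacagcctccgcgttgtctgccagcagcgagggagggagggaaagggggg
Col3a1: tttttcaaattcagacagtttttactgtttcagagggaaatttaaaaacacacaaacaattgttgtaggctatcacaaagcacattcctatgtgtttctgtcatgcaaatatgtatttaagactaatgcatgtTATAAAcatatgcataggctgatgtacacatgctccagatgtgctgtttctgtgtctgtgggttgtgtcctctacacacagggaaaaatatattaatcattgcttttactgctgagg

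The windows differ in composition. G and C make up 35.2% of the Col3a1 window and 76.4% of that of Col5a1, with 62.8% for Col5a3, 59.6% for Col27a1 and 68.8% for Col13a1. GGGCGG was found upstream of Col5a3, Col27a1 and Col5a1, which moved in both directions, and TATAAA upstream of Col13a1 and Col3a1, which also moved in both. Promoter windows were matched for 35 of the 44 collagen genes, with 38 windows. CCAAT was in 13 of the 38 collagen windows (34.2%) and in 33.8% of all 32851 mouse windows of this length. TATAAA was in 5 (13.2%) against 12.4% of all windows. GGGCGG was in 22 (57.9%) against 32.7%. A match describes the letters of the window and is not evidence of binding.

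Most collagen genes with a call were lower in tumours with Prox1. Of the 44 genes, 39 had a mean of at least 10 normalised counts and were tested. Of these, 19 were called lower, 3 were called higher and 17 were not called. The share called lower was 48.7% of the collagens tested, against 16.2% of all genes tested. The share called higher was 7.69%, against 17.1% of all genes, and the share called in either direction was 56.4% against 33.3%. The median log2 fold change was -0.73 over the collagens and -0.02 over all genes tested. The 2 groups did not overlap for 26 of the 39 collagens, which is near the 63.3% of all genes tested, and so is not a result about collagens. Scaled by total count, which moved the median of all genes to -0.44, the libraries gave 25 collagens called lower and 3 higher, against 39.95% and 8.62% of all genes. The counts depended on having both Control libraries, since fewer collagens were called lower and higher when either was left out. The share of all genes called dropped too. With 1 library left in Control, its spread was assumed to be that of the other group. In bulk tissue, fewer cells of a collagen-making type and less RNA per cell cannot be told apart.

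**Figure D1:**
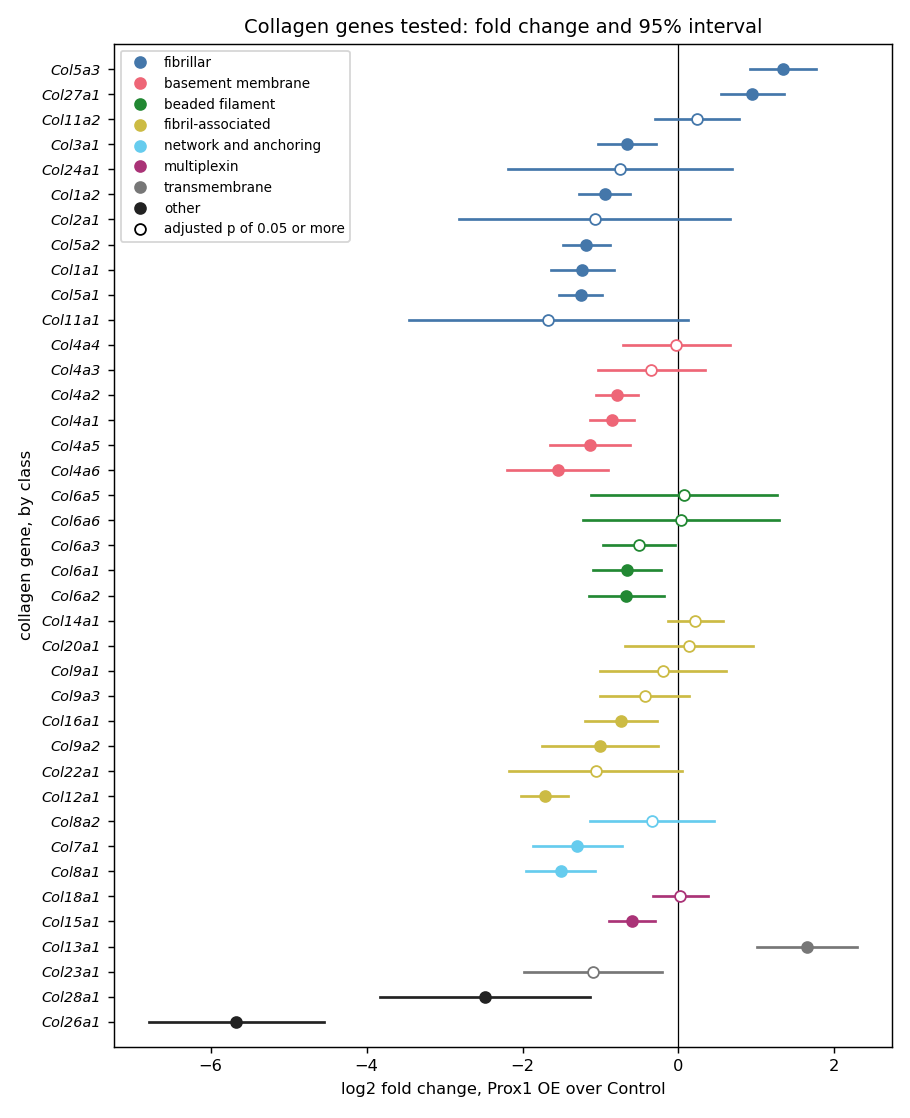
Log2 fold change (Prox1 OE minus Control, horizontal axis) of each tested collagen gene, ordered by class, with bars for the 95% confidence interval and open circles for genes not called. Called genes lie on both sides of 0 in the fibrillar class, from Col5a1 at -1.25 to Col5a3 at 1.34, whereas the 4 called basement membrane genes all lie below 0.

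The summed collagen count of each tumour moved the same way. The 44 genes summed to 239384 and 234970 normalised counts in Control 1 and 2, and to 149826, 164144 and 149179 in Prox1 OE 1, 2 and 3. Every Prox1 OE tumour lay below both Control tumours. As a share of all reads, collagens took 0.553% and 0.513% in Control and 0.261%, 0.285% and 0.228% in Prox1 OE. The same 5 genes, Col3a1, Col18a1, Col1a1, Col4a1 and Col1a2, held 73.4% to 73.8% of the collagen counts in all 5 libraries. Their order changed, with Col3a1 first in both Control libraries and Col18a1 first in all 3 Prox1 OE libraries.

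Fibrillar genes took a smaller share of the collagen pool in Prox1 OE, without a test. Fibrillar genes held 51.6% and 49.2% of collagen counts in Control and 42.1%, 45.4% and 42.0% in Prox1 OE. Basement membrane genes held 19.4% and 20.1% in Control and 17.8%, 16.0% and 17.1% in Prox1 OE. The multiplexins, basement membrane proteoglycans of which Col18a1 is the main one here, held 16.5% and 19.5% in Control and 28.4%, 25.1% and 28.0% in Prox1 OE. The share of fibril-associated genes was also higher, at 5.15% and 5.25% in Control and 6.34%, 6.87% and 6.44% in Prox1 OE. The groups did not overlap for any of these 4 shares. With Col18a1 left out of the total, the fibrillar share was 60.6% and 59.8% in Control and 57.2%, 59.4% and 57.0% in Prox1 OE, a much narrower gap. A share can rise while counts do not, and the summed count of the multiplexins was 42577 ± 4473 (SD, n = 2) for Control against 41808 ± 682 (SD, n = 3) for Prox1 OE.

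**Figure D2:**
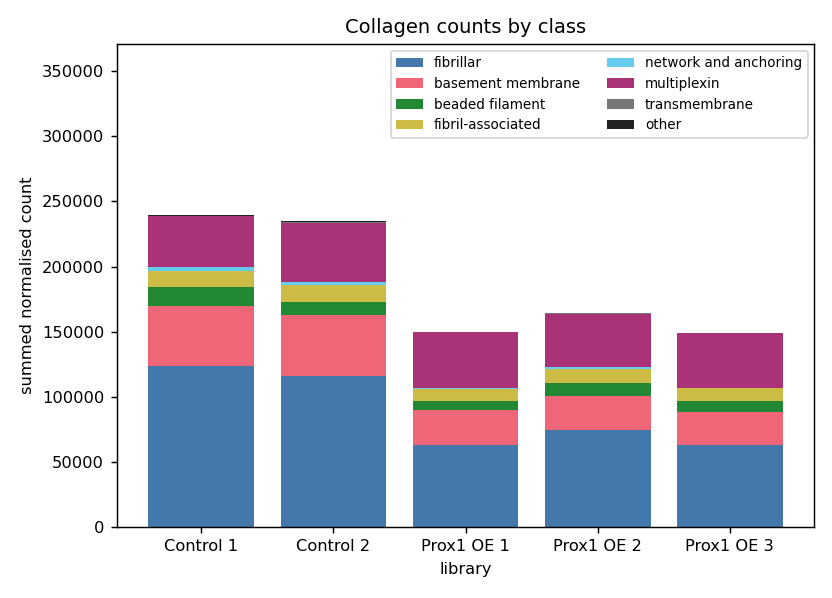
Stacked bars of summed normalised counts (vertical axis, from 0) of each collagen class in each of the 5 libraries. Fibrillar and basement membrane sums are lower in all 3 Prox1 OE libraries than in both Control libraries, whereas the multiplexin sums overlap.

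The fibrillar class held genes that fell and genes that rose. Of 11 members, all tested, 5 were called lower, 2 were called higher and 4 were not called, with a median log2 fold change of -0.95. The 2 higher calls are 18.2% of the class, near the 17.1% of all genes called higher, while the 5 lower calls are 45.5%, against 16.2% of all genes. The class was less even than the others between tumours. Set against the Control mean, its median was -0.09 in Prox1 OE 1, -0.97 in Prox1 OE 2 and -1.37 in Prox1 OE 3. Col11a1, Col2a1 and Col24a1, all of low count, were higher in Prox1 OE 1 than in the other Prox1 OE tumours. By summed count the class was lower in all of them. As log2 over the Control mean, the sum was -0.92, -0.68 and -0.93 in Prox1 OE 1, 2 and 3.

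Type I collagen is the most abundant fibre of scar tissue and is built from Col1a1 and Col1a2. Col1a1 (ENSMUSG00000001506, mm10 chr11:94936224-94953042, plus strand) had 31810 and 29586 normalised counts in Control 1 and 2 and 13386, 15445 and 10742 in Prox1 OE 1, 2 and 3. All Prox1 OE tumours were far below both Control tumours. The means were 30698 ± 1572 (SD, n = 2) and 13191 ± 2357 (SD, n = 3). Col1a1 changed by -1.23 on the log2 scale (SE 0.17, adjusted p 0.0033). Col1a2 (chr6:4504814-4541544, plus strand) had 30161 and 27329 in Control and 14553, 16579 and 13673 in Prox1 OE. It fell with its partner, again without overlap, with a log2 fold change of -0.95 (SE 0.14, adjusted p 0.0038). Col3a1 (ENSMUSG00000026043, chr1:45311538-45349706, plus strand) encodes type III collagen, which forms thin fibres together with type I. It had 47689 and 44031 in Control and 25936, 32827 and 28883 in Prox1 OE, a log2 fold change of -0.66 (SE 0.16, adjusted p 0.019). The size of this change was below those of the type I genes, and the ratio of the genes is given further on.

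Type V collagen sits inside type I fibres and sets their width, and its 3 genes did not move together. Col5a1 (ENSMUSG00000026837, chr2:27886425-28039514, plus strand) had 5500 and 5490 normalised counts in Control 1 and 2 and 2332, 2502 and 2103 in Prox1 OE 1, 2 and 3. Col5a2 (ENSMUSG00000026042, chr1:45374321-45503282, minus strand) had 6638 and 6882 in Control and 3230, 3130 and 2608 in Prox1 OE. Both fell in every Prox1 OE tumour and by like amounts, with log2 fold changes of -1.25 (SE 0.12, adjusted p 0.0021) and -1.18 (SE 0.13, adjusted p 0.0024). Col5a3 (ENSMUSG00000004098, chr9:20770050-20815067, minus strand), a less common chain of type V, had 898 and 1236 in Control and 2347, 2589 and 3139 in Prox1 OE. Every Prox1 OE value was above both Control values. The means were 1067 ± 239 (SD, n = 2) and 2691 ± 406 (SD, n = 3), and the log2 fold change of 1.34 (SE 0.18, adjusted p 0.0032) had the opposite sign to those of its partner chains.

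Col27a1 (ENSMUSG00000045672, chr4:63214004-63334991, plus strand), a fibrillar collagen known from cartilage, also rose. It had 587 and 594 normalised counts in Control 1 and 2 and 928, 1217 and 1319 in Prox1 OE 1, 2 and 3. The Control values were close to each other and below all Prox1 OE values, and the log2 fold change was 0.95 (SE 0.17, adjusted p 0.0071). The call did not pass when either Control library was left out. The 4 remaining fibrillar genes, best known from cartilage and bone, were not called. Col11a2, which encodes a type XI chain, had 119 and 146 in Control and 178, 160 and 131 in Prox1 OE, with overlap and a log2 fold change of 0.23 (adjusted p 0.46). Col2a1, the cartilage fibre chain, Col11a1 and Col24a1 had 4.63 to 182 normalised counts over the 5 libraries. Their log2 fold changes were -1.08, -1.67 and -0.75, and all 3 overlapped between the groups. Col2a1 had 34.5 and 182 in Control and 74.6, 24.8 and 27.8 in Prox1 OE, so that Control 1 lay within the Prox1 OE range and the sign of its change rested on Control 2.

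**Figure D3:**
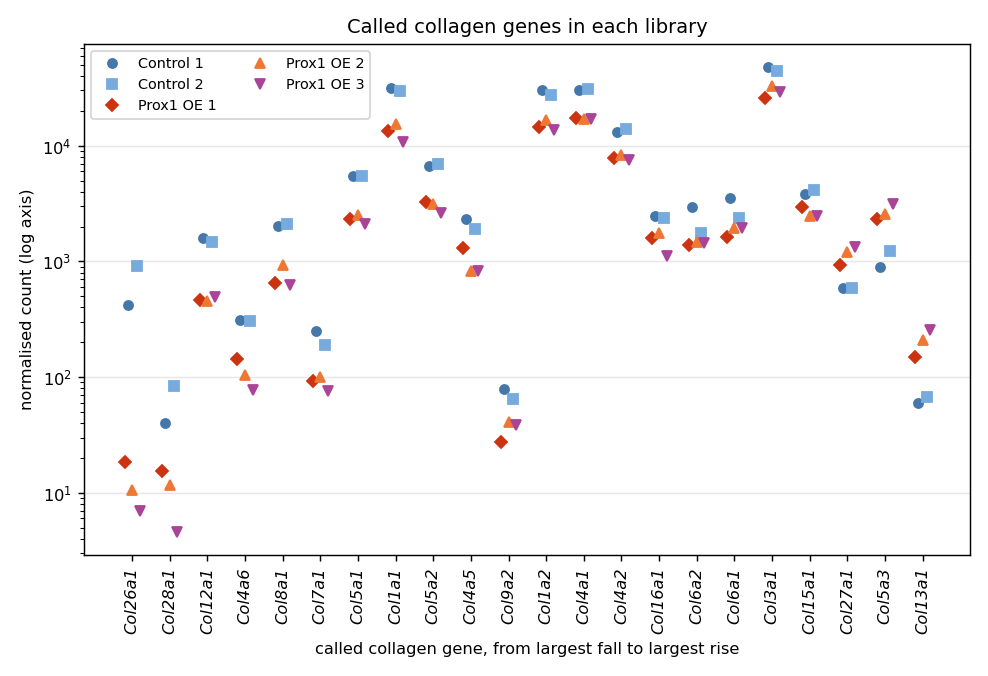
Normalised counts (vertical log axis) of the 22 called collagen genes, ordered from the largest fall to the largest rise, with 1 point per library. The first 19 genes are lower in all 3 Prox1 OE tumours than in both Control tumours, and Col27a1, Col5a3 and Col13a1 at the right are higher in all of them.

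The basement membrane collagens that were called were all lower. Of the 6 type IV genes, 4 were called lower, none was called higher and 2 were not called, with a median log2 fold change of -0.82. The background was 16.2% of all genes lower and 17.1% higher, so that with 6 genes the lack of a higher call says little. The class was even between tumours, with medians against the Control mean of -0.75, -0.79 and -0.85 in Prox1 OE 1, 2 and 3. Col4a1 (ENSMUSG00000031502, chr8:11198423-11312826, minus strand) and Col4a2 (ENSMUSG00000031503, chr8:11312805-11449287, plus strand) form the type IV mesh found in nearly all basement membranes. Col4a1 had 30456 and 30869 normalised counts in Control 1 and 2 and 17184, 16909 and 16902 in Prox1 OE 1, 2 and 3. Col4a2 had 13189 and 13989 in Control and 7795, 8281 and 7555 in Prox1 OE. Both were lower in every Prox1 OE tumour, with tight groups. Their log2 fold changes were -0.85 (SE 0.12, adjusted p 0.0035) and -0.79 (SE 0.11, adjusted p 0.0035).

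Col4a5 and Col4a6 encode chains of a more restricted type IV mesh. Col4a5 (chrX:141475385-141689234, plus strand) had 2328 and 1923 normalised counts in Control and 1304, 833 and 828 in Prox1 OE. Col4a6 (chrX:141165403-141474076, minus strand) had 312 and 304 in Control and 142, 104 and 77.5 in Prox1 OE. Neither gene had overlapping groups, and the log2 fold changes were -1.13 (SE 0.22, adjusted p 0.0088) and -1.55 (SE 0.28, adjusted p 0.0068). Col4a3 and Col4a4, whose chains are best known from kidney, stayed at low counts. Col4a4 had 138 and 78.0 in Control and 101, 93.2 and 112 in Prox1 OE, with overlap and a log2 fold change of -0.03 (adjusted p 0.96). Col4a3 had 59.0 to 111 over the 5 libraries and a log2 fold change of -0.35 (adjusted p 0.39). Another gene, C430014B12Rik, overlaps Col4a3 on the opposite strand with 59.6% of its count, and whether counting used the strand was not stated.

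Type IV genes lie in head-to-head pairs that are transcribed away from a shared start region. Col4a1 and Col4a2 overlap by 22 bases at their starts, 71 bases separate Col4a3 from Col4a4 and 1308 separate Col4a5 from Col4a6. In 2 of these pairs both genes were called lower, and in the other pair neither gene was called. Among other neighbours, Col3a1 and Col5a2 lie tail to tail 24614 bases apart on chromosome 1, and Col6a1 and Col6a2 share a strand on chromosome 10. Both genes of each of these pairs were called lower. No gene was called among Col6a4, Col6a5 and Col6a6 on chromosome 9, or in the pair of Col9a1 and Col19a1 on chromosome 1.

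Beaded filament collagens (type VI) link cells to the surrounding fibres. Of the 6 genes, 5 were tested, of which 2 were called lower and none higher, again beside 16.2% and 17.1% of all genes. Col6a1 had 3541 and 2350 normalised counts in Control 1 and 2 and 1620, 1935 and 1935 in Prox1 OE 1, 2 and 3. Col6a2 had 2956 and 1758 in Control and 1390, 1467 and 1451 in Prox1 OE. Both were below the lower Control value in all Prox1 OE tumours, but the Control tumours differed widely from each other. The log2 fold changes were -0.66 (adjusted p 0.032) and -0.67 (adjusted p 0.044), and both calls were lost in 6 of the 15 alternatives tried. Without Control 1, whose values were the higher ones, the log2 fold changes were -0.37 and -0.29, and without Control 2 they were -0.96 and -1.04. Col6a3, a further chain of the same molecule, had 8012 and 6161 in Control and 3992, 6007 and 5076 in Prox1 OE. Its groups did not overlap either, but its log2 fold change of -0.50 was not called (adjusted p 0.085). Col6a5 and Col6a6 had 14.4 to 62.5 normalised counts, with log2 fold changes of 0.07 and 0.03.

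Fibril-associated collagens coat the fibres, and 3 of the 8 tested were called lower, with none higher, against 16.2% and 17.1% of all genes. Col12a1 (ENSMUSG00000032332, chr9:79598991-79718831, minus strand), which binds type I fibres, had 1600 and 1486 normalised counts in Control 1 and 2 and 460, 457 and 491 in Prox1 OE 1, 2 and 3. Both groups were tight and far apart, and the log2 fold change was -1.72 (SE 0.13, adjusted p 0.0014). Col16a1 had 2470 and 2377 in Control and 1581, 1762 and 1111 in Prox1 OE, a log2 fold change of -0.73 (adjusted p 0.026). Its call did not pass in limma without a trend (adjusted p 0.071 in that fit). Col9a2, a chain of cartilage type IX collagen, had 79.7 and 64.4 in Control and 27.6, 41.3 and 38.2 in Prox1 OE. Its log2 fold change of -1.01 (adjusted p 0.045) lay close to the threshold and was not called in 8 of the 15 alternatives.

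The other fibril-associated genes were not called. Col14a1, a close relative of Col12a1, had 4246 and 4405 normalised counts in Control and 4236, 5121 and 5879 in Prox1 OE. The groups overlapped, and the log2 fold change was 0.22 (95% interval -0.14 to 0.57, adjusted p 0.30). Without Prox1 OE 1 it was called higher. Col9a3 had 3712 and 3659 in Control and 2891, 3658 and 1922 in Prox1 OE, a log2 fold change of -0.43 (adjusted p 0.21). The groups did not overlap, but Prox1 OE 2 lay next to Control and the Prox1 OE values were widely spread. Col9a1 had 154 and 208 in Control and 231, 158 and 103 in Prox1 OE, with overlap and a log2 fold change of -0.20 (adjusted p 0.69). Col20a1 and Col22a1 had 18.5 to 76.3 normalised counts, with log2 fold changes of 0.14 and -1.06. BX649560.1 overlaps Col20a1 on the same strand with a larger count, so reads of Col20a1 are uncertain.

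Network and anchoring collagens include Col8a1, which forms a lattice in vessel walls, and Col7a1, the anchoring fibril under epithelium. Col8a1 (chr16:57624258-57754737, minus strand) had 2024 and 2109 normalised counts in Control 1 and 2 and 646, 936 and 631 in Prox1 OE 1, 2 and 3. Col7a1 (chr9:108953586-108984875, plus strand) had 251 and 191 in Control and 92.0, 100 and 75.2 in Prox1 OE. Both fell in every Prox1 OE tumour, with log2 fold changes of -1.51 (SE 0.19, adjusted p 0.0028) and -1.30 (SE 0.24, adjusted p 0.0079). Col8a2, at 23.6 to 41.9 normalised counts, was not called and had a log2 fold change of -0.34.

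The multiplexins Col15a1 and Col18a1 carry sugar chains in basement membranes, and the end of the Col18a1 protein is released as endostatin. Col18a1 (ENSMUSG00000001435, chr10:77052178-77166548, minus strand), known to be made by hepatocytes, had 35594 and 41628 normalised counts in Control 1 and 2 and 39564, 38694 and 39294 in Prox1 OE 1, 2 and 3. All Prox1 OE values lay between the 2 Control values. The log2 fold change was 0.03 (95% interval -0.32 to 0.37, adjusted p 0.91), and with libraries scaled by total count it was -0.41 (adjusted p 0.044). Col15a1 had 3819 and 4112 in Control and 2947, 2456 and 2471 in Prox1 OE. It fell without overlap, by a log2 fold change of -0.60 (SE 0.13, adjusted p 0.012).

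Of the 4 transmembrane collagens, Col13a1 and Col23a1 were tested. Col13a1 (ENSMUSG00000058806, chr10:61838236-61979108, minus strand), a membrane collagen of cell contacts, had 59.2 and 67.8 normalised counts in Control and 150, 211 and 255 in Prox1 OE. It was higher in every Prox1 OE tumour and had the largest rise of the collagens tested, with means of 63.5 ± 6.12 (SD, n = 2) and 205 ± 52.4 (SD, n = 3). The change was 1.65 on the log2 scale (SE 0.28, adjusted p 0.0054), and the call did not pass without Control 1. Col23a1 had 157 and 366 in Control and 141, 111 and 89.1 in Prox1 OE. Its Control tumours differed widely, and its log2 fold change of -1.09 was not called (adjusted p 0.061). Without Control 1 it was -1.70 and called (adjusted p 0.045), and without Control 2 it was -0.49. It was also called under total count scaling (adjusted p 0.011).

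The largest falls were in Col26a1 and Col28a1, which belong to no larger class. Col26a1 (ENSMUSG00000004415, chr5:136741759-136883209, minus strand), a secreted protein with collagen repeats, had 421 and 906 normalised counts in Control and 18.4, 10.6 and 6.94 in Prox1 OE. It was nearly lost in all Prox1 OE tumours, with a log2 fold change of -5.67 (SE 0.48, adjusted p 0.0018). Col28a1, known from nerve sheaths, had 40.3 and 83.1 in Control and 15.3, 11.8 and 4.63 in Prox1 OE, a log2 fold change of -2.48 (SE 0.58, adjusted p 0.017). Its call did not pass when either Control library was left out. The 5 collagens not tested were Col6a4, Col10a1, Col17a1, Col19a1 and Col25a1, with 0 to 31 reads in any library. They were left untested for low counts. Without that filter Col10a1, at 2 and 7 reads in Control and 0 in all Prox1 OE libraries, was called lower. It overlaps Nt5dc1, a gene of far higher count on the opposite strand.

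In all 15 alternatives tried, 8 calls held. They were the lower calls of Col1a1, Col5a1, Col5a2, Col4a2, Col12a1, Col8a1 and Col26a1, and the higher call of Col5a3. These genes come from 5 of the 8 classes. Without Control 1, the calls of Col1a2, Col3a1, Col4a1, Col4a5, Col4a6, Col7a1, Col15a1, Col16a1, Col28a1, Col13a1 and Col27a1 did not pass, along with those of Col6a1, Col6a2 and Col9a2. Without Control 2, those of Col3a1, Col4a6, Col15a1, Col16a1, Col28a1, Col9a2 and Col27a1 did not pass. All of these genes kept the sign of their change.

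Levels were compared between genes per length of exon, as parts per 1000000 of the sum over all genes of a library. On this scale Col18a1 had 350 in Control, Col1a1 299, Col3a1 299, Col4a1 262, Col1a2 148 and Col4a2 131. In Prox1 OE the levels were 231 for Col18a1, 123 for Col3a1, 94.5 for Col4a1, 84.1 for Col1a1, 50.01 for Col1a2 and 49.4 for Col4a2. The order depended on the length used. With the longest coding transcript Col3a1 had 527 in Control, Col18a1 439, Col1a2 344, Col1a1 331 and Col4a1 296, so Col1a1 was level with Col3a1 by exon length only. This scale moves with the most abundant genes of a tumour, and is read here within a group only.

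Ratios of normalised counts between chains within a tumour were then compared, because they do not depend on how a library is scaled. With 2 against 3 tumours, an exact permutation test has 10 splits, and its smallest two-sided p is 0.1, so no ratio could reach 0.05. Of 10 ratios computed, 8 were tested, and p adjusted over these 8 was 0.267 or more. The ratio of Col4a1 to Col4a2 was 2.31 and 2.21 in Control and 2.20, 2.04 and 2.24 in Prox1 OE. Col5a1 to Col5a2 was 0.828 and 0.798 in Control and 0.722, 0.799 and 0.806 in Prox1 OE. Col6a1 to Col6a2 was 1.20 and 1.34 in Control and 1.17, 1.32 and 1.33 in Prox1 OE. These partner chains had overlapping ratios, with exact permutation p of 0.5, 0.6 and 1.

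Other ratios separated the groups. Col3a1 to Col1a1 was 1.499 and 1.488 in Control 1 and 2 and 1.94, 2.13 and 2.69 in Prox1 OE 1, 2 and 3, so that it was higher in every Prox1 OE tumour. Col1a1 to Col1a2 was 1.05 and 1.08 in Control and 0.920, 0.932 and 0.786 in Prox1 OE. Col18a1 to Col15a1 was 9.32 and 10.1 in Control and 13.4, 15.8 and 15.9 in Prox1 OE. Both of these pairs also had no overlap, and all 3 ratios had the smallest possible exact permutation p of 0.1. Col1a1 to Col4a1, a fibrillar to basement membrane ratio, was 1.04 and 0.958 in Control and 0.779, 0.913 and 0.636 in Prox1 OE. It was lower in Prox1 OE without overlap, with a narrow gap between the groups and an exact permutation p of 0.2. Col4a5 to Col4a6 ran from 6.32 to 7.46 in Control and from 8.02 to 10.7 in Prox1 OE, with an exact permutation p of 0.2.

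A further pair of ratios was chosen after the values were seen and is given without a test. Col5a3 to Col5a1 was 0.163 and 0.225 in Control and 1.01, 1.03 and 1.49 in Prox1 OE, so Col5a3 had fewer counts than Col5a1 in Control, about as many in 2 Prox1 OE tumours and more in Prox1 OE 3. Col14a1 to Col12a1 was 2.65 and 2.96 in Control and 9.21, 11.2 and 11.98 in Prox1 OE.

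**Figure D4:**
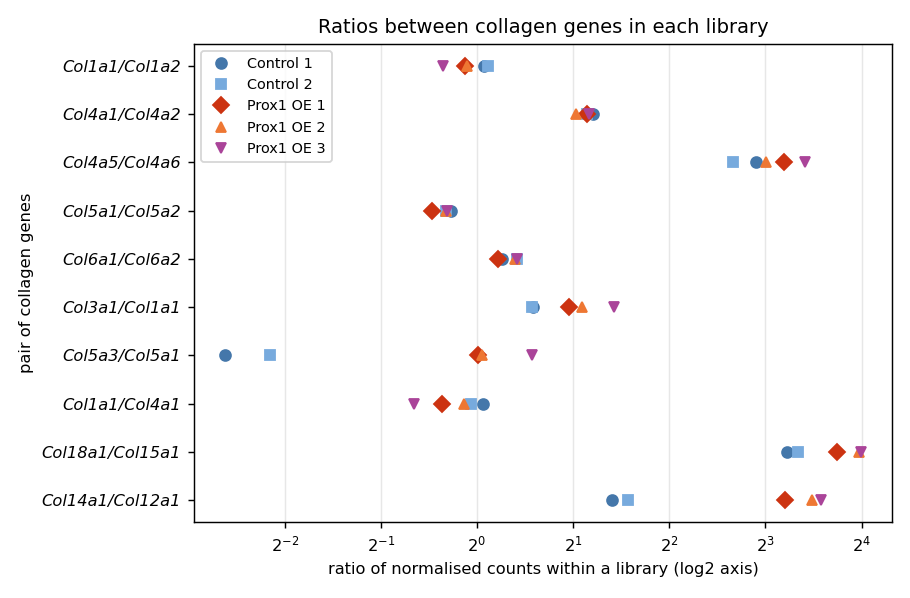
Ratios of normalised counts between 10 pairs of collagen genes in each tumour (horizontal log2 axis), with 1 point per library. Ratios of Col4a1 to Col4a2, Col5a1 to Col5a2 and Col6a1 to Col6a2 overlap between the groups, whereas Col3a1 to Col1a1 and Col5a3 to Col5a1 are higher in all Prox1 OE tumours.

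Genes that fold, modify and bind collagen were taken from lists written with earlier results of these data known, and their counts are read against the 16.2% of all genes called lower and the 17.1% called higher. Of 18 chaperones and processing enzymes, 8 were called lower and 2 higher. Serpinh1, the collagen chaperone HSP47, had 10806 and 8988 normalised counts in Control and 5314, 6635 and 6662 in Prox1 OE, a log2 fold change of -0.68 (adjusted p 0.014). It fell in all Prox1 OE tumours. The prolyl hydroxylase subunit P4ha3 fell (log2 fold change -1.87), as did the lysyl hydroxylase Plod2 (-1.86) and the prolyl isomerase Fkbp10 (-1.06). P4hb, a subunit of the collagen prolyl 4-hydroxylases and also a general disulfide isomerase, rose from 55011 and 67148 in Control to 102164, 112786 and 125262 in Prox1 OE, a log2 fold change of 0.89. That call did not pass when either Control library was left out. Of 5 crosslinking enzymes, 2 were called lower and none higher. Lox, lysyl oxidase, had 1895 and 2663 in Control and 645, 730 and 671 in Prox1 OE, a log2 fold change of -1.72 (adjusted p 0.0022). Its relative Loxl2 had a log2 fold change of -1.38. Both crosslinking enzymes were lower in every Prox1 OE tumour.

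Of 12 fibril-binding genes, 6 were called lower and none higher. The matrix glycoproteins Thbs1 (log2 fold change -2.11), Tnc (-1.39), Postn (-0.87) and Thbs2 (-0.76) fell. Decorin (Dcn, log2 fold change 0.27, adjusted p 0.11) was not called. Of 17 basement membrane partners of type IV collagen, 10 were called lower and none higher. The laminin chains Lama4 (-1.19) and Lama5 (-1.18) and the type IV crosslinking enzyme Pxdn (-1.19) fell. Of 8 collagen receptors, 4 were called lower and none higher, among them Ddr1 (-1.18) and the integrin chains Itga2 (-1.05) and Itgb1 (-0.43). In the TGF-beta axis, a known inducer of fibrillar collagen, 7 of 9 genes were called lower and none higher. The target gene Ccn2 (-1.80) and the ligands Tgfb2 (-1.81) and Tgfb3 (-1.07) fell. The ligand Tgfb1 was not called (0.09, adjusted p 0.69). These counts rested in part on Control 1, without which 2 chaperones and processing genes, 2 fibril-binding genes, 3 basement membrane partners, 0 receptors and 2 TGF-beta genes were called lower, when 2.79% of all genes were. The 2 crosslinking calls held.

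Markers of the cells known to make collagen were set beside these changes. Of 10 stellate cell markers, 3 were called higher and 1 lower, and none was at or below 3 reads in all libraries. These counts too stand beside 16.2% of all genes called lower and 17.1% called higher. Lrat, which stores vitamin A in quiescent stellate cells, had 352 and 328 normalised counts in Control and 802, 602 and 790 in Prox1 OE, a log2 fold change of 1.09 (adjusted p 0.0047). It rose in all Prox1 OE tumours, as did Colec11 (1.29), while the pericyte gene Rgs5 fell (-0.77). The stellate list summed to 39321 and 39432 in Control and 27157 to 30642 in Prox1 OE, and Rgs5 alone made up most of it. Without Rgs5 the other 9 markers summed to 8248 and 9304 in Control and 9949, 11246 and 13292 in Prox1 OE, higher in every Prox1 OE tumour. Of 7 myofibroblast markers, 5 were called lower and none higher. Acta2, smooth muscle actin of activated cells, had 8180 and 11977 in Control and 3492, 5135 and 3480 in Prox1 OE, a log2 fold change of -1.32 (adjusted p 0.0058). Cnn1 (-2.40), Timp1 (-1.55) and Vim (-1.01) also fell, though Cnn1 did not pass without Control 1 (-1.69, adjusted p 0.082). The myofibroblast list summed to 47486 and 57565 in Control and 23194 to 29514 in Prox1 OE. Vim alone gave 27319 and 28564 of it in Control and 14676, 15100 and 12084 in Prox1 OE. Markers shared by fibroblasts and stellate cells, Pdgfrb (-0.08, adjusted p 0.65) and Pdgfra (-0.11, adjusted p 0.66), were not called.

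Of 8 portal fibroblast markers, 7 were tested and only Fbln2, a matrix protein, was called, with a log2 fold change of -1.20. A count of 1 in 7 is near the share of all genes and says nothing about the list. That list summed to 8003 to 9027 in Control and 5655 to 8524 in Prox1 OE. Of 6 mesothelial markers, 4 were called lower. Msln, a defining gene of the liver's surface layer, had 123 and 55.9 normalised counts in Control and 1.02, 3.54 and 1.16 in Prox1 OE, at or below 3 reads. Upk1b was at 60.0 and 21.2 in Control and at 0 in all Prox1 OE libraries. The mesothelial list summed to 443 to 615 in Control and 195 to 329 in Prox1 OE. Most of the sum in Prox1 OE came from Gpm6a (280, 172 and 199), which was not called. The bile duct list had 5 of 7 tested genes called lower. Krt19, a bile duct keratin, went from 8442 and 10790 to 1643, 1968 and 1785 (log2 fold change -2.41, adjusted p 0.0014). That list summed to 745842 to 814909 in Control and 519008 to 701552 in Prox1 OE, nearly all of it from Spp1.

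The counts of endothelial and immune markers stand beside 17.1% of all genes called higher and 16.2% called lower. Of 7 sinusoidal endothelial markers, 5 were called higher and none lower, among them Clec4g (2.61) and Stab2 (1.04, adjusted p 0.011). This list summed to 7174 to 9799 in Control and 13300 to 17975 in Prox1 OE. Of 7 vascular endothelial markers, 1 was called higher and 1 lower, which is near the shares of all genes, and Pecam1 had a log2 fold change of -0.27 (adjusted p 0.15). That list summed to 10108 to 12061 in Control and 9961 to 12516 in Prox1 OE, with overlap. Macrophage markers had 2 of 7 called higher and lymphocyte markers 3 of 6, with none lower. Macrophage sums were 8762 to 10242 in Control and 14085 to 20909 in Prox1 OE, and lymphocyte sums 726 to 947 and 973 to 1332. Without Control 1, fewer myofibroblast, mesothelial and bile duct markers were called lower. Fewer stellate, sinusoidal, macrophage and lymphocyte markers were called higher. The share of all genes called also dropped in that fit, which leaves 1 Control library. The part of these markers in the collagen differences was not tested.

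**Figure D5:**
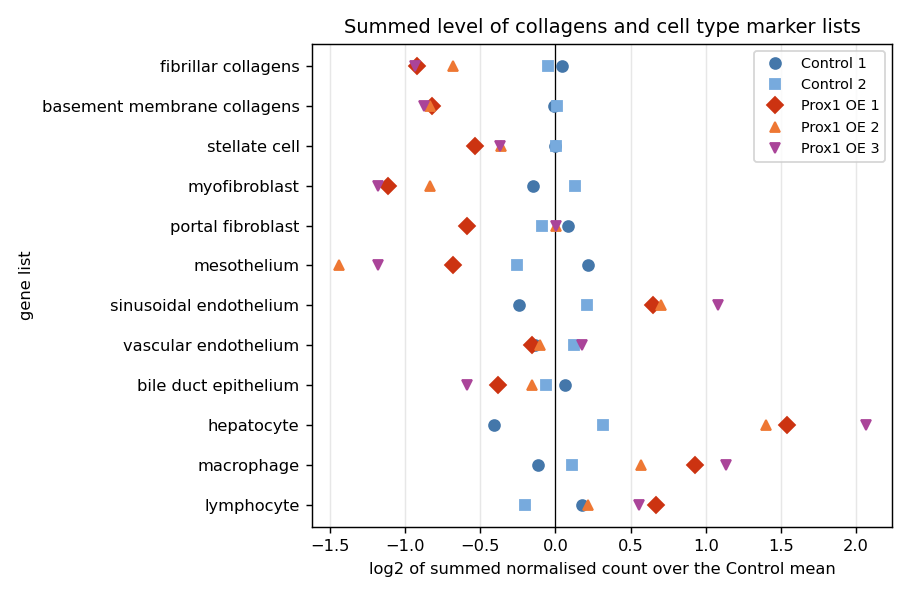
Summed normalised count of fibrillar collagens, basement membrane collagens and each cell type marker list in the 5 libraries, as log2 over the Control mean, with 1 point per library. Myofibroblast, mesothelial, bile duct and stellate sums lie below both Control libraries in all Prox1 OE tumours together with the collagens, the stellate sum through Rgs5, whereas sinusoidal endothelial, hepatocyte and macrophage sums lie above them.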

How the data were processed

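RNA from 5 mouse tumours was made into dUTP libraries, which keep the strand, and sequenced as pairs of 100 base reads. The authors mapped reads to mm10 with STAR, per the labels, and the deposited table holds a signal, namely reads of each gene divided by a DESeq2 size factor. The counting tool and its use of strand were not given in the sources used here. Whole reads were recovered for 100% of values within 0.1 reads, and 0 columns of values were left unassigned. A table of the authors' own DESeq2 comparison (mean, fold change and p-values) was also deposited and was not used.

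Gene symbols and positions came from the GENCODE annotation of GRCm38, which matched 55137 of 55397 identifiers (99.5%), and promoters from RefSeq (GRCm38.p6). Genes with a mean of at least 10 normalised counts were tested two-sided with limma 3.58.1 (trended eBayes, R 4.3.3) on log2 values with a pseudocount of 1, which understates changes of low genes. P-values were adjusted by Benjamini-Hochberg over all tested genes, at a threshold of 0.05, without covariates. Class medians and list counts are descriptions. Values at or below 3 reads were treated as a floor, which covers counting error only.

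Alternatives were TMM or total count scaling, pseudocounts of 0.1 and 10, no filter or a mean of at least 50, no trend, count tests on whole reads (edgeR 4.0.16, DESeq2 1.42.0), a replicate block, and leaving out each library. Length per transcript was added after the data were seen. The fit was tested on simulated data. Collagens with library values in the text have a call or a mean of at least 100 normalised counts, with the rest given by ranges. Col2a1 and the reads of Col10a1 are exceptions to this rule. From each list up to 4 called genes with the largest changes and that mean are named, plus Serpinh1, Lox, Acta2, Lrat, Pecam1, Stab2 and Krt19. Some genes that this rule names are not reported here. Others (Dcn, Tgfb1, Pdgfra, Pdgfrb, Msln, Upk1b and Spp1) were chosen after their values were seen. Genes, classes and lists were chosen with earlier results of these data known.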

Additional observations from a re-analysis of the deposited data

How the results depend on the processing

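Of 449 values computed for 30 collagens under the alternatives, 395 kept their direction and their side of the threshold. Leaving out 1 library at a time gave 1 to 4 collagens called higher and 8 to 18 called lower, and medians from -0.66 to -0.42 for the classes other than fibrillar and basement membrane (-0.63 with all libraries). The fibrillar median ran from -1.23 to -0.71 (-0.95 with all libraries). The lowest numbers came without Control 1, where 3.98% of all genes were called higher and 2.79% lower. Without Control 2 the test called 2 higher and 13 lower, against 8.40% and 4.88% of all genes. With 2 Control tumours, their number limits the precision more than read depth. Of the 22 calls, 10 were lost only where a Control library was left out. Total count scaling lowered the median of all genes to -0.44. It gave 25 collagens called lower and 3 higher, against 39.95% of all genes lower and 8.62% higher. It moved the basement membrane median to -1.25 and that of the other classes to -1.06, and Col18a1 turned to -0.41 (adjusted p 0.044). Col14a1 (-0.21) and Col11a2 (-0.19) also turned negative without a call, and Col6a3 (adjusted p 0.0065) and Col9a3 (adjusted p 0.031) were called lower. Relative to the shifted median of all genes these values were close to those under size factors. edgeR's quasi-likelihood test and DESeq2 each called 20 lower and 3 higher, adding Col23a1. Without a filter, 17 were lower, Col10a1 among them. In limma without a trend, 16 were lower and 3 higher, and the calls of Col16a1, Col6a1 and Col6a2 were lost. Same-numbered tumours had correlations of 0.14 and 0.02 in their deviations from the group means. With 2 Control tumours these values are not independent and cannot show whether the replicate numbers mark a pairing. With the replicate block, 18 collagens were lower and 3 higher, Col9a2 was lost, and the median of the other classes was -0.55. The longest coding transcript moved levels per length, for example that of Col1a2 in Control from 148 to 344. The cause of these shifts was not tested.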
